A study of Mus musculus with 9 samples.

Results

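Interleukin-15 (IL-15) and interleukin-2 (IL-2) were compared at 1 nM after 24 h in mouse CD8+ T cells, on the level of mRNA read by RNA sequencing. The members are the 2 libraries labelled with these cytokines at that dose and time, of 9 libraries in all. The cells came from the spleens of female C57BL/6 mice aged 6 weeks, with no genetic change named in the labels, and every library was made from RNA of 3 samples of identical treatment that had been pooled. One library is from cells given IL-15 at 1 nM for 24 h and the other from cells given IL-2 at 1 nM for 24 h. Besides these, 3 more pairs of IL-15 and IL-2 (1 nM for 4 h, 500 nM for 4 h and 500 nM for 24 h) and 1 untreated library, which carries no time in its label, are given beside them. These pairs are called the low-dose 4 h, high-dose 4 h and high-dose 24 h pairs. With 1 pooled library on each side there is no spread between replicates, so no test was made, and every interval is a 95% interval of counting error only. The libraries were amplified by PCR and the labels name sample indexes but no tags on single molecules, so reads do not count separate molecules, and the difference between repeated cultures is not known here.

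IL-2 and IL-15 are growth and survival factors of T cells. Both bind a receptor made of the beta chain (gene Il2rb) and the common gamma chain (Il2rg), and each has an alpha chain of its own (Il2ra and Il15ra) that raises affinity. Both signal through the kinases JAK1 and JAK3 to the transcription factor STAT5, which switches on feedback inhibitors such as Cish, cytotoxic genes such as Gzmb and cell cycle genes. In CD8+ T cells IL-2 is known for driving effector differentiation and IL-15 for sustaining memory cells, and the series asks how cytokines with shared receptor chains come to act differently.

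Reads were counted per transcript by the authors, and 1 transcript per gene was used. The IL-15 library held 38229903 counts over 13150 genes and the IL-2 library 48799962 counts over 13238 genes, within 27158143 to 48799962 counts for all 9 libraries. Levels are given as CPM, the read count over the library total after the libraries were scaled to each other with TMM, and a ratio is always IL-15 over IL-2. A gene is called tested, in the sense of compared, where the higher of its 2 scaled counts was at least 20, and called where the levels differed at least 2-fold. A count of 0 was taken as up to 3 counts, which on this scale is a level of up to 0.0755 CPM in the IL-15 library and 0.0595 CPM in the IL-2 library.

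The pattern at 1 nM and 24 h was asymmetric among well-counted genes: far more of them were lower with IL-15 than higher. Lower were Gzmb, the high-affinity IL-2 receptor chain Il2ra, the STAT5 target genes Cish and Lta, nearly all interferon-inducible GTPase genes, the chemokine gene Cxcl10, and most genes of mitosis. Genes of naive and memory T cells, of the T cell receptor complex and most receptor chains were within 2-fold. Of 12073 genes tested, 817 (6.77%) were at least 2-fold higher with IL-15 and 1054 (8.73%) at least 2-fold lower, 15.5% in all. Most of these calls came from genes with few reads. Between 20 and 100 scaled counts, 56.6% of 1788 genes were called, 493 of them higher and 519 lower. Between 100 and 1000 scaled counts, 17.4% of 4162 genes were called, 306 higher and 417 lower. With at least 1000 scaled counts in either library, a limit chosen after seeing the data, 6123 genes were tested, of which 18 (0.294%) were higher and 118 (1.93%) lower, 2.22% in all. Calls among low-count genes were nearly even in both directions. For 514 of all higher and 652 of all lower genes the whole counting interval lay beyond 2-fold, and the source of the scatter at low counts was not tested. In bulk RNA fewer cells of a type and less RNA per cell cannot be told apart.

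**Figure D1:**
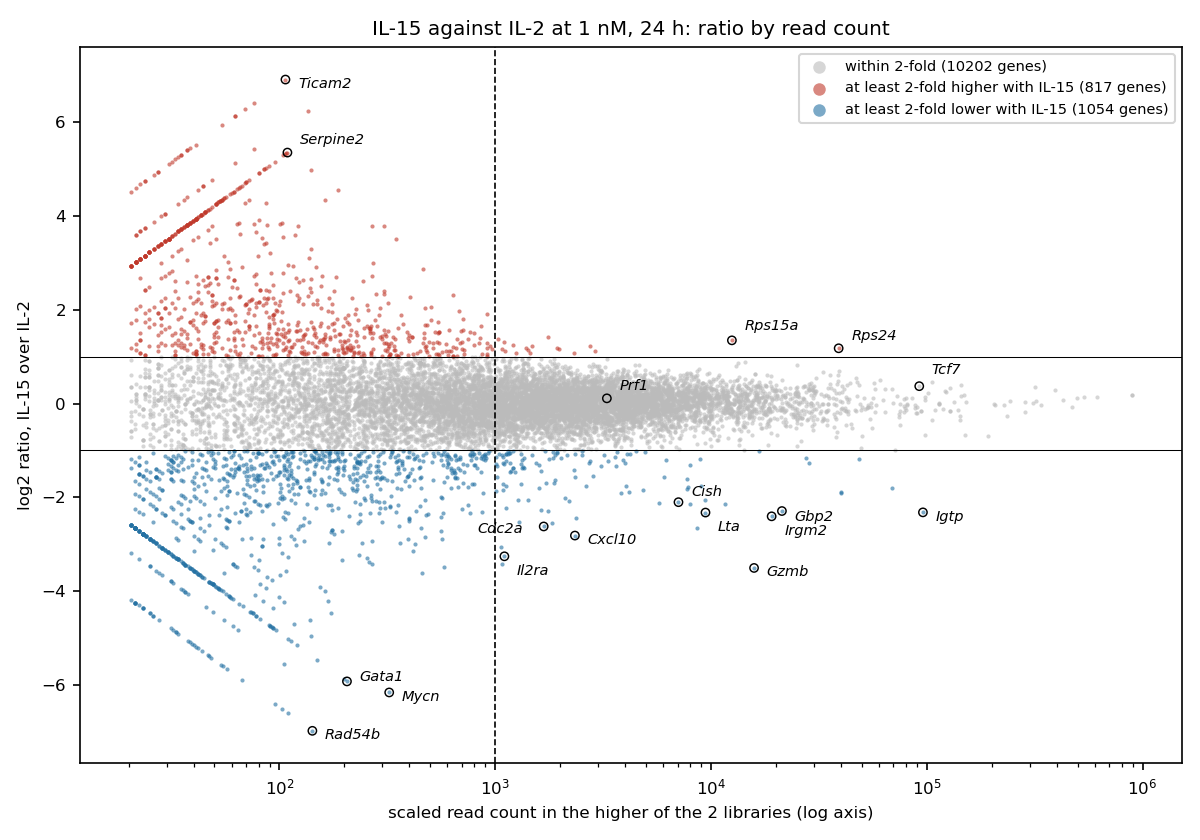
Log2 ratio of IL-15 over IL-2 at 1 nM and 24 h (vertical axis) against the scaled read count in the higher of the 2 libraries (horizontal, log axis), 1 point per gene for 12073 genes; the dashed line marks 1000 scaled counts and the horizontal lines mark 2-fold. The 817 higher genes lie almost all left of the dashed line, and right of it 118 lower genes stand against 18 higher ones.

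The promoters of 7 genes are shown first, because the interferon and STAT5 target genes described next are known to be switched on through short letters in such stretches. They were chosen after their values were seen: Igtp, Irgm2, Irgm1 and Gbp2 (interferon-inducible GTPases) were called lower with IL-15, as were Lta and Serpina3g, and Socs1 was within 2-fold. Each line is the 250 bases before the transcription start from RefSeq, build GRCm38.p6, on the strand of the gene and from 5′ to 3′. Capitals mark matches, on either strand, to TTCNNNGAA, the letters bound by STAT factors, and to GAAA followed by any pair of bases and GAAA again, the core letters of the interferon-stimulated response element, called the GAAA repeat below. The repeat was added after seeing the data, and its matches may overlap each other.
Igtp: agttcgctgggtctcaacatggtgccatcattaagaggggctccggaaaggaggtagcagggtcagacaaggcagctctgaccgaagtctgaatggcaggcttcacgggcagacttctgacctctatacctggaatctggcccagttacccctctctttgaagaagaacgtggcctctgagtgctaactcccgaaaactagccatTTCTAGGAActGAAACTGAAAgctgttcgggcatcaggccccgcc
Irgm2: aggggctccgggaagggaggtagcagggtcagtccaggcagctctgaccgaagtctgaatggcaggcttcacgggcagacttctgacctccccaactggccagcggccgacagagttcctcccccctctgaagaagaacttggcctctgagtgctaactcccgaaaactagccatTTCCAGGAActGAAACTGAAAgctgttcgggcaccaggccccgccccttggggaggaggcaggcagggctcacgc
Irgm1: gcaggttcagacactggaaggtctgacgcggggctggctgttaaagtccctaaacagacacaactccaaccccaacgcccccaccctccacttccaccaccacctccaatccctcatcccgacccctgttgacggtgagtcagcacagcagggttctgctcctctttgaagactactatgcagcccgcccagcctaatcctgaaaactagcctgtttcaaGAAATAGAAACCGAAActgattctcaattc
Gbp2: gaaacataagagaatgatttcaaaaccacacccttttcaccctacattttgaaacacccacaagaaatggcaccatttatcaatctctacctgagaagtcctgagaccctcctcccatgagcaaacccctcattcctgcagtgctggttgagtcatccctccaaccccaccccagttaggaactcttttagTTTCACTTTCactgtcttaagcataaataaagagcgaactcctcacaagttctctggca
Lta: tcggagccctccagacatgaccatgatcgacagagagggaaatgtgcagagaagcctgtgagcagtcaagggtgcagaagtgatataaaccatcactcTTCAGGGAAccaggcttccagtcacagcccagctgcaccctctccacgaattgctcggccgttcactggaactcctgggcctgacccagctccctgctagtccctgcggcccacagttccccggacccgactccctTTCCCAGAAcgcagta
Serpina3g: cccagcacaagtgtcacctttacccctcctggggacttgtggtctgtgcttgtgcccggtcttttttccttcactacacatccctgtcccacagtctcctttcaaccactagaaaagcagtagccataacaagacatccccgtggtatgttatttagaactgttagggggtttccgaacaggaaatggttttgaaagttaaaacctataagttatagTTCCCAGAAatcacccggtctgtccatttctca
Socs1: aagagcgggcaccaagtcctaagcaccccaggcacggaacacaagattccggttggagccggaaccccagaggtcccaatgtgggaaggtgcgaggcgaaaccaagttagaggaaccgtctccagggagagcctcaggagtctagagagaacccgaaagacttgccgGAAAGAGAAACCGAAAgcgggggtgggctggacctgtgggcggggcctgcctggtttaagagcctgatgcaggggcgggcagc
The stretches are chr11:58199306-58199555 (plus strand) for Igtp, chr11:58214727-58214976 (plus) for Irgm2, chr11:48871421-48871670 (minus) for Irgm1, chr3:142620413-142620662 (plus) for Gbp2, chr17:35205352-35205601 (minus) for Lta, chr12:104235897-104236146 (plus) for Serpina3g and chr16:10785537-10785786 (minus) for Socs1. In Igtp the STAT letters TTCTAGGAA begin 45 bases before the start and GAAACTGAAA begins 34 bases before it. Irgm2 has the same arrangement, TTCCAGGAA at 75 bases and GAAACTGAAA at 64 bases before the start, and the promoters of these neighbouring genes share a run of 55 identical bases. Irgm1 and Socs1 each have a pair of overlapping repeats, at 30 and 24 bases before the start in Irgm1 and at 83 and 77 bases in Socs1, and Gbp2 has the reverse strand form TTTCACTTTC at 59 bases. Lta has TTCAGGGAA at 152 bases and TTCCCAGAA at 16 bases, and Serpina3g has TTCCCAGAA at 33 bases.

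Over all 97 promoters matched to the lower genes with at least 1000 scaled counts (79 of the 118 genes), 13 (13.4%) held TTCNNNGAA, against 5.86% of 5567 promoters of all tested genes at that count and 7.02% of all 32851 promoters in the table. The GAAA repeat was in 11 of the 97 (11.3%), against 3.02% of promoters of tested genes at that count and 2.98% of all promoters. Both were in 4 of the 97 (4.12%), against 0.431% of promoters of tested genes at that count. Over 840 promoters matched to lower genes (687 of the 1054 genes) the shares were 8.10% and 3.33%. Over 692 promoters matched to higher genes (544 of the 817 genes) they were 5.64% and 2.17%. A gene with several promoters counts more than once. The same letters stood before genes that were within 2-fold: of the interferon response list, 5 of 7 lower genes and 7 of 13 genes within 2-fold with a promoter in the table held the GAAA repeat. TTCNNNGAA was held by 1 of these 7 lower genes and 4 of the 13 genes within 2-fold. These counts describe letters in a window and show no binding, and no test was made.

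The interferon-inducible GTPases were lower nearly throughout. These GTPases, made by cells exposed to interferon, act in the defence of cells against intracellular pathogens. The family was split from the wider interferon list by gene symbol after the values were seen. All 16 measured members were tested and 15 were called lower with IL-15, with a median log2 ratio of -2.04 and a range of -3.48 to -0.90; the background over all genes is 8.73% lower. Their summed level was 1622 CPM with IL-15 and 6498 CPM with IL-2, beside 1238 CPM in untreated cells. Igtp (NM_018738, chromosome 11 in the files' mm8 build) is the most abundant of them. It measured 427 CPM with IL-15 and 2129 CPM with IL-2, a level 4.98-fold lower with IL-15 (interval 4.90 to 5.07), from 16977 and 107385 reads. Irgm2 measured 80.2 CPM with IL-15 and 424 CPM with IL-2, and Gbp2 96.8 CPM with IL-15 and 473 CPM with IL-2. For both genes the IL-15 level was close to that of untreated cells, 71.6 CPM for Irgm2 and 85.0 CPM for Gbp2, and the IL-2 level stood well above it. Iigp1 had the largest ratio of the family, 1.16 CPM with IL-15 and 12.9 CPM with IL-2, or 11.1-fold lower (interval 8.25 to 15.4). Gbp5 was the member not called, at 1.64 CPM with IL-15 and 3.05 CPM with IL-2. Tgtp and Tgtp2 are near-identical copies between which reads can be split or shared, so their values, 238 CPM with IL-15 and 888 CPM with IL-2 for Tgtp, are uncertain as values of 1 gene.

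The classical antiviral genes differed less. The Oas, Ifit and Mx genes sense viral RNA or block viral translation and replication, and are textbook targets of type I interferon. Of 16 tested, none was called higher and 2 lower (Oasl2 and Mx1), beside 6.77% and 8.73% of all genes. The median log2 ratio was -0.29, and the group was formed by symbol after the values were seen. Oas1a, which makes the activator of RNase L, measured 56.0 CPM with IL-15 and 68.7 CPM with IL-2. Ifit1 measured 41.9 CPM with IL-15 and 63.4 CPM with IL-2, and Oas2 17.5 CPM with IL-15 and 15.3 CPM with IL-2. Oasl2, an OAS-like gene, stood apart with 26.5 CPM with IL-15 and 89.6 CPM with IL-2. The whole interferon list of 32 genes, all tested, had 0 higher and 14 lower members and a median of -0.75, against -0.01 over all genes.

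Of 11 genes of interferon gamma signalling or induced by it, outside the GTPases and grouped after their values were seen, 5 were lower with IL-15 and 0 higher, with a median of -0.99, against 8.73% of all genes lower. Cxcl10, a chemokine that draws CXCR3-bearing T cells, measured 7.40 CPM with IL-15 and 51.9 CPM with IL-2. Cd274, the gene of the checkpoint ligand PD-L1, measured 7.52 CPM with IL-15 and 36.1 CPM with IL-2. Cxcl10 was thus 7.02-fold lower (interval 6.22 to 7.95) and Cd274 4.80-fold lower (interval 4.25 to 5.45). Irf1, an interferon-induced transcription factor, measured 473 CPM with IL-15 and 1078 CPM with IL-2, 2.28-fold lower. Wars, the tryptophanyl-tRNA synthetase gene, which is on the amino acid list and is known in human cells as an interferon gamma target, measured 58.7 CPM with IL-15 and 259 CPM with IL-2. Ifng itself, the interferon gamma gene, was low in both libraries, 1.61 CPM with IL-15 from 64 reads and 8.86 CPM with IL-2 from 447 reads, and 0.999 CPM in untreated cells. Its log2 ratio was -2.46, and the fold by which it was lower has an interval of 4.23 to 7.27. Ifng also differed in the other pairs. It measured 0.830 CPM with IL-15 and 1.91 CPM with IL-2 in the low-dose 4 h pair, and 331 and 93.2 CPM in the high-dose 4 h pair. In the high-dose 24 h pair it measured 54.4 CPM with IL-15 and 265 CPM with IL-2, a log2 ratio of -2.28, where the GTPase genes had a median of 0.12. Ciita, the class II transactivator gene and another interferon gamma target, measured 10.5 CPM with IL-15 and 9.28 CPM with IL-2. The interferon receptor genes were within 2-fold: Ifngr1 measured 1417 CPM with IL-15 and 1141 CPM with IL-2, and Ifnar1 165 CPM with IL-15 and 165 CPM with IL-2. Genes of class I antigen presentation and the immunoproteasome, also interferon-responsive, had no called member among 15 tested but a median of -0.53, with Psmb9 at 158 CPM with IL-15 and 314 CPM with IL-2 and B2m at 2641 CPM with IL-15 and 4282 CPM with IL-2.

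**Figure D2:**
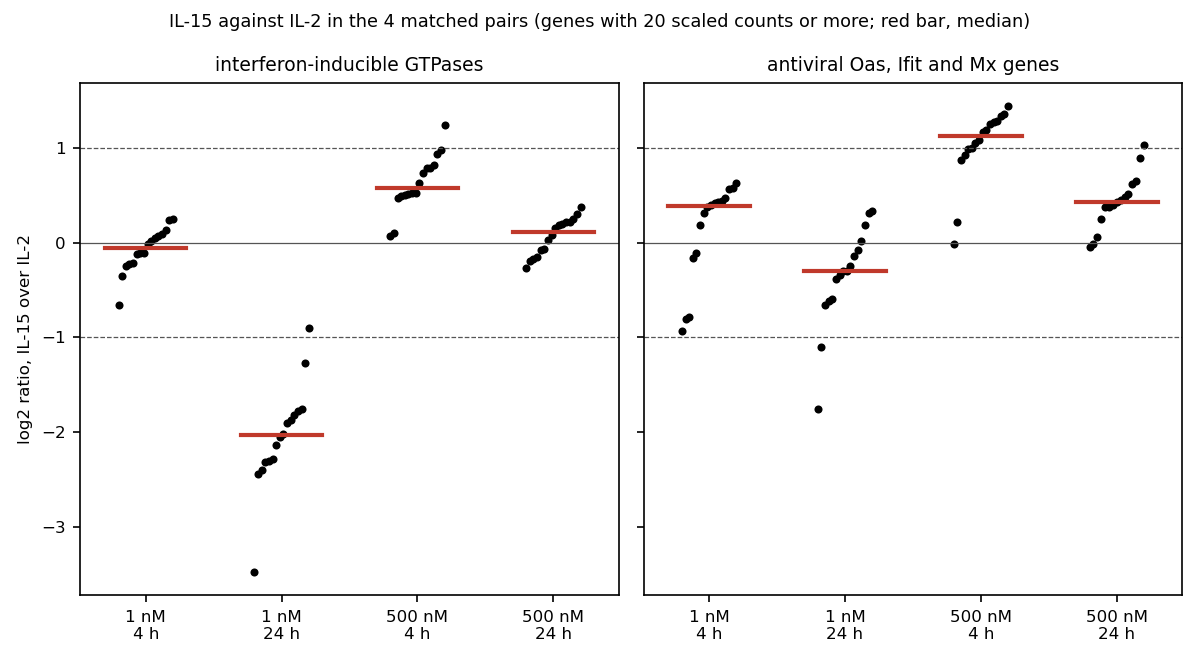
Log2 ratio of IL-15 over IL-2 for each member of the interferon-inducible GTPases (left) and of the Oas, Ifit and Mx genes (right) in the 4 matched pairs of libraries, with red bars at the medians and dashed lines at 2-fold. At 1 nM and 24 h 15 of 16 GTPase genes lie below the lower dashed line, and in the other pairs none does.

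STAT5 target genes were the next group, ordered here as receptor chains, feedback inhibitors and secreted products. Of the 22 listed, all tested, 0 were higher and 8 lower with IL-15, beside 6.77% and 8.73% of all genes. Their median log2 ratio was -0.48. Of the 18 with at least 1000 scaled counts 7 were lower, beside 1.93% of all genes at that count. Il2ra (NM_008367, chromosome 2) measured 2.57 CPM with IL-15 and 24.5 CPM with IL-2, 9.53-fold lower (interval 7.78 to 11.8), and 1.64 CPM in untreated cells. It is both a target of STAT5 and the chain that gives the receptor its high affinity for IL-2. Il15ra, the alpha chain that binds IL-15, measured 9.51 CPM with IL-15 and 26.1 CPM with IL-2, and 17.1 CPM in untreated cells. The chains used by both cytokines differed little: Il2rb measured 283 CPM with IL-15 and 398 CPM with IL-2, and Il2rg 237 CPM with IL-15 and 261 CPM with IL-2. Both subunits of the IL-12 receptor were called lower, Il12rb1 at 11.6 CPM with IL-15 and 30.2 CPM with IL-2 and Il12rb2 at 0.679 CPM with IL-15 and 5.35 CPM with IL-2. Over the receptor list as a whole, 4 of 23 tested were lower and 2 (Il1r2 and Il9r) higher from at most 77 reads. The shares over all genes were 8.73% lower and 6.77% higher.

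Among the feedback inhibitors, Cish (NM_009895, chromosome 9), which binds the activated receptor and dampens STAT5 signalling, measured 36.6 CPM with IL-15 and 157 CPM with IL-2, 4.29-fold lower (interval 4.05 to 4.54). The untreated level was 39.6 CPM, so the IL-15 library lay at it. Socs2 measured 18.6 CPM with IL-15 and 37.7 CPM with IL-2, just past 2-fold. Socs1 measured 44.2 CPM with IL-15 and 54.7 CPM with IL-2, and Socs3 183 CPM with IL-15 and 168 CPM with IL-2, both within 2-fold. Survival and growth genes of the STAT5 pathway were within 2-fold as well, with the exception of Mycn described below. Bcl2, which blocks cell death, measured 172 CPM with IL-15 and 208 CPM with IL-2, Myc 255 CPM with IL-15 and 311 CPM with IL-2, and the kinase gene Pim2 333 CPM with IL-15 and 580.2 CPM with IL-2. Mcl1, another survival gene, leaned the other way with 300.4 CPM with IL-15 and 203 CPM with IL-2. The genes of the signalling machinery itself, Jak1, Jak3, Stat5a and Stat5b, had log2 ratios between -0.11 (Stat5a) and 0.28 (Jak1).

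Cytokine genes of T cells were lower as a group: of 15 tested, 0 were higher and 11 lower, with a median of -1.38. Of all genes 6.77% were higher and 8.73% lower. The lower share of all genes was 29.03% between 20 and 100 scaled counts and 10.02% between 100 and 1000. Most of the 15 cytokine genes had few reads. The 4 with at least 1000 scaled counts had 3 lower members, beside 1.93% of all genes at that count. Lta, lymphotoxin alpha, was the best counted of the lower ones, with 41.8 CPM with IL-15 and 209 CPM with IL-2, a log2 ratio of -2.32 (interval 4.75-fold to 5.27-fold lower). Tnf measured 13.6 CPM with IL-15 and 30.3 CPM with IL-2, and Osm, oncostatin M, 14.1 CPM with IL-15 and 35.2 CPM with IL-2. Lif, a STAT3-activating cytokine, measured 2.11 CPM with IL-15 and 10.8 CPM with IL-2. Ltb, the most abundant gene of the list, was close in both at 1729 CPM with IL-15 and 1987 CPM with IL-2.

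Of the cytotoxic genes, Gzmb differed most. Gzmb (NM_013542, chromosome 14) encodes granzyme B, the protease that killer cells deliver into their targets. It measured 31.0 CPM with IL-15 and 351 CPM with IL-2, 11.3-fold lower (interval 10.7 to 12.0), from 1233 and 17715 reads, the largest ratio of any gene with at least 1000 scaled counts. The IL-15 level was still above the untreated 8.86 CPM. Gzmc, another granzyme gene, was called lower from few reads, 47 with IL-15 and 263 with IL-2. Prf1, which encodes the pore-forming perforin, was alike in both at 73.0 CPM with IL-15 and 67.6 CPM with IL-2, and 132 CPM in untreated cells. Gzma measured 2.29 CPM with IL-15 and 3.95 CPM with IL-2 and was not called. Of 15 tested cytotoxic genes, 4 were lower (Gzmb, Gzmc, Fasl and Serpina3g) and 0 higher, beside 8.73% and 6.77% of all genes. Tbx21 and Eomes, transcription factors of effector and memory CD8+ T cells, did not reach 2-fold, with Tbx21 at 31.3 CPM with IL-15 and 47.8 CPM with IL-2 and Eomes at 36.4 CPM with IL-15 and 51.1 CPM with IL-2.

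Most cell division genes were lower with IL-15. Of 29 mitosis and kinetochore genes, all tested, 22 were lower and 0 higher, beside 8.73% and 6.77% of all genes. A ratio under 1 was found in 28, and the median log2 ratio was -1.44. The 10 of them with at least 1000 scaled counts were all called lower, beside 1.93% of all genes at that count. Cdc2a, the older symbol of the mitotic kinase gene Cdk1, measured 6.06 CPM with IL-15 and 37.2 CPM with IL-2, 6.14-fold lower (interval 5.36 to 7.05), and 9.03 CPM in untreated cells. Birc5, which encodes survivin of the chromosomal passenger complex, measured 4.93 CPM with IL-15 and 28.5 CPM with IL-2. Ccnb2, a mitotic cyclin, measured 11.7 CPM with IL-15 and 48.8 CPM with IL-2. The IL-15 levels of these genes lay below those of untreated cells, 5.22 CPM for Birc5 and 13.6 CPM for Ccnb2. Mki67, the proliferation marker gene, was within 2-fold, with 6.42 CPM with IL-15 and 7.40 CPM with IL-2 from 255 and 373 reads.

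Genes of DNA replication differed in the same direction with a smaller median. Of 35 tested, 14 were lower and 0 higher, with a median of -0.90, beside 8.73% lower and 6.77% higher of all genes. Uhrf1, which keeps DNA methylation through replication, measured 6.95 CPM with IL-15 and 40.8 CPM with IL-2, and Rrm2, the regulated subunit of ribonucleotide reductase, 22.7 CPM with IL-15 and 84.5 CPM with IL-2. The helicase subunit genes differed less, with Mcm5 at 72.2 CPM with IL-15 and 178 CPM with IL-2 and Mcm2 at 93.5 CPM with IL-15 and 139.6 CPM with IL-2. Cdt1, a licensing factor, was within 2-fold at 335 CPM with IL-15 and 290.1 CPM with IL-2. Of 18 genes of homologous recombination and the Fanconi pathway 8 were lower and 0 higher, with a median of -0.57. Only 2 of these had at least 1000 scaled counts, and 0 of the 2 were called. Of 21 G1 genes 6 were lower and 1 higher, beside the same shares of all genes. The D-type cyclin gene Ccnd2 measured 226 CPM with IL-15 and 312 CPM with IL-2.

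**Figure D3:**
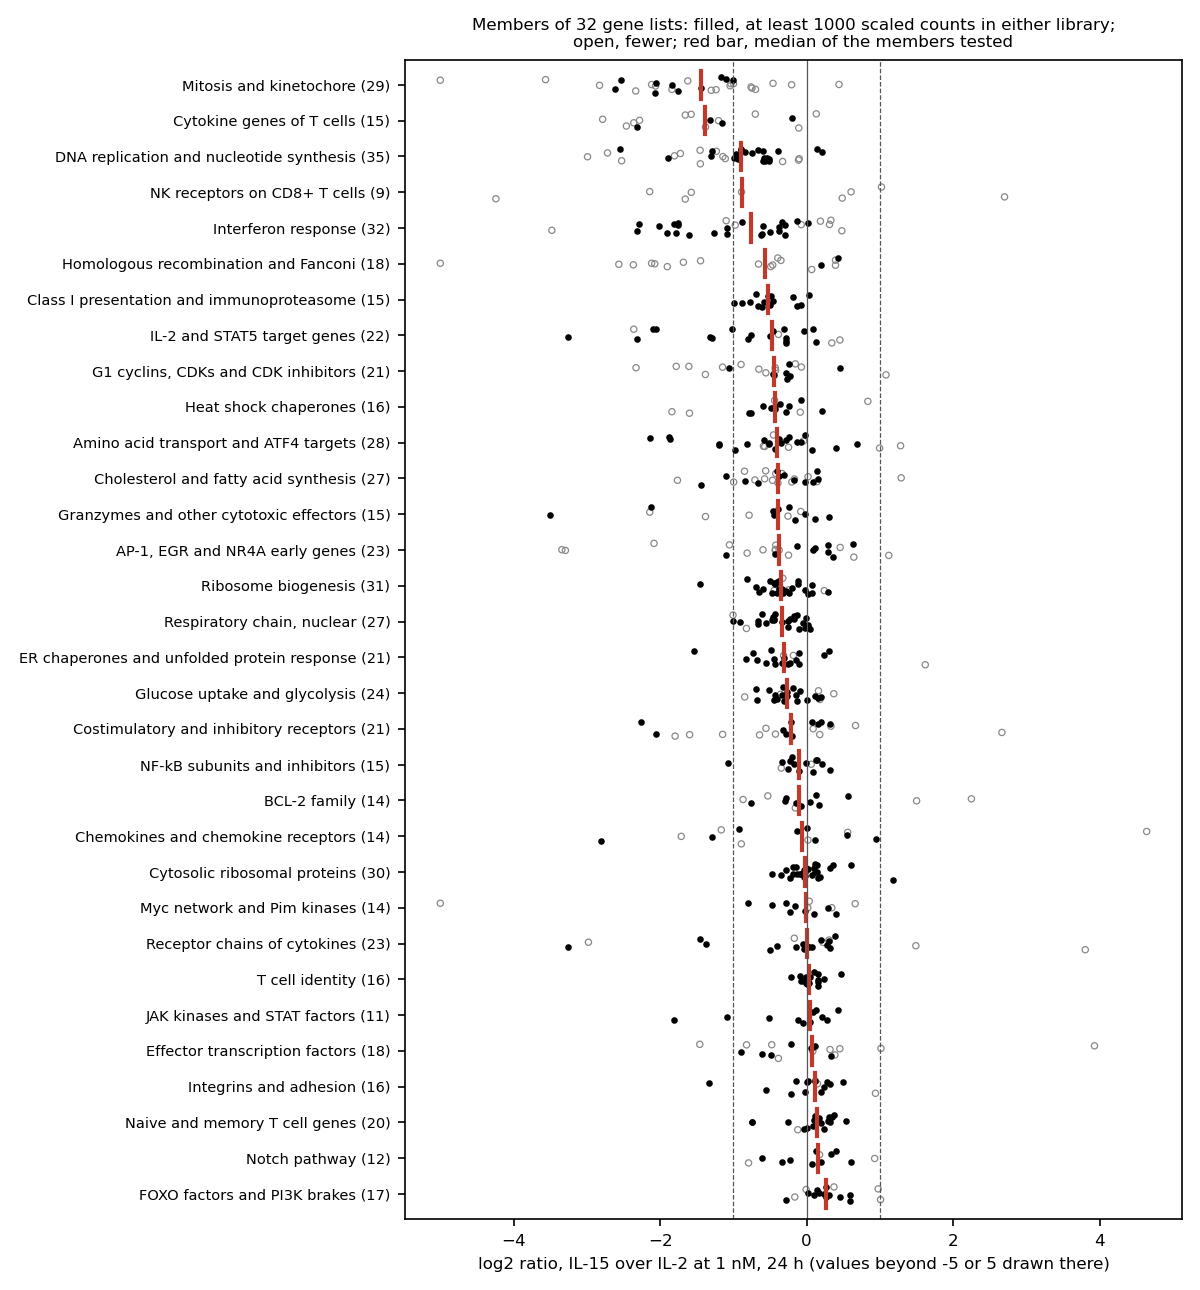
Log2 ratio of IL-15 over IL-2 at 1 nM and 24 h for the tested members of 32 gene lists (number in brackets), filled where a gene had at least 1000 scaled counts in either library, open where it had fewer, with a red bar at each list's median. Mitosis has the lowest median, -1.44, and the FOXO and PI3K brake genes the highest, 0.26; all genes have a median of -0.01.

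Metabolic lists differed less, and their counts stand beside 8.73% lower and 6.77% higher of all genes. Of 28 genes of amino acid transport and ATF4 targets 5 were lower and 1 higher, with a median of -0.40. Psat1, an enzyme of serine synthesis, measured 25.2 CPM with IL-15 and 92.2 CPM with IL-2, Slc7a5, a subunit of the large neutral amino acid transporter, 12.9 CPM with IL-15 and 29.6 CPM with IL-2, and Mthfd2, a mitochondrial folate enzyme, 60.0 CPM with IL-15 and 138 CPM with IL-2. Of 27 genes of cholesterol and fatty acid synthesis 3 were lower (Idi1, Sqle and Cyp51) and 1 higher (Elovl6), with a median of -0.39. These are 11.1% and 3.70%, near the shares of all genes. Sqle, squalene epoxidase, measured 9.64 CPM with IL-15 and 26.2 CPM with IL-2. Glycolysis had no called gene among 24 and a median of -0.26, with Ldha at 685 CPM with IL-15 and 934 CPM with IL-2. Ribosome biogenesis had 1 lower gene (Rrp1b) among 31 and a median of -0.35, with nucleolin (Ncl) at 427 CPM with IL-15 and 579 CPM with IL-2. The nuclear respiratory chain genes had 2 lower among 27 (Uqcrq and Ndufa5), or 7.41%, which is not above the share of all genes, and a median of -0.34.

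None of 20 naive and memory T cell genes was called. Their median was 0.14, with 14 ratios above 1 and 6 below. The largest differences in the list were those of Ly6c2, at 129.9 CPM with IL-15 and 219 CPM with IL-2, and Ly6c1, at 71.8 CPM with IL-15 and 120.0 CPM with IL-2, near-identical surface antigen genes between which reads can be shared. Tcf7, the transcription factor of naive and stem-like memory cells, measured 2047 CPM with IL-15 and 1584 CPM with IL-2, and Il7r, the IL-7 receptor alpha chain, 544 CPM with IL-15 and 476 CPM with IL-2. Ccr7 measured 846 CPM with IL-15 and 787 CPM with IL-2. The FOXO factors and brakes of PI3K signalling had a median of 0.26 over 17 genes, 1 called higher (Foxo4) and 0 lower. Sesn1, a sestrin gene, measured 423 CPM with IL-15 and 279.6 CPM with IL-2, Trib2 179.7 CPM with IL-15 and 119.8 CPM with IL-2, and Ypel3 1055 CPM with IL-15 and 768 CPM with IL-2. The counting intervals of these small ratios exclude 1, but no spread between cultures is known to set them against. Among checkpoint and costimulatory receptor genes 5 of 21 were lower (Cd274, Tnfrsf9, Cd160, Tigit and Ctla4) and 1 higher (Havcr2), beside 8.73% and 6.77% of all genes. Tnfrsf9, the costimulatory receptor 4-1BB, measured 7.60 CPM with IL-15 and 31.5 CPM with IL-2.

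The remaining lists are given by their counts, beside the 15.5% of all genes called. Of 23 early response genes of the AP-1, EGR and NR4A families 5 were lower and 1 higher, with Jun at 15.3 CPM with IL-15 and 33.0 CPM with IL-2. Of 14 chemokine and chemokine receptor genes 4 were lower and 1 higher, with the lymphocyte chemokine gene Xcl1 at 9.86 CPM with IL-15 and 24.2 CPM with IL-2. Both called BCL-2 family genes of 14 were higher, the death-promoting Pmaip1 at 5.84 CPM with IL-15 and 2.06 CPM with IL-2 and Bik at 4.81 CPM with IL-15 and 1.01 CPM with IL-2, all from at most 232 reads. Heat shock chaperones had 2 of 16 lower, ER chaperones 1 of 21 lower and 1 higher, integrins and adhesion genes 1 of 16 lower (Ly6a), NF-kB genes 1 of 15 lower (Bcl3) and the Notch pathway 0 of 12 called. NK receptors read in CD8+ T cells had 4 of 9 lower and 2 higher, none with 1000 scaled counts, and effector transcription factors 1 of 18 lower and 2 higher.

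The 18 well-counted genes that were higher with IL-15 had ratios under 3-fold, and those named here were chosen after their values were seen. Rps24 measured 866 CPM with IL-15 and 383 CPM with IL-2, 2.26-fold higher (interval 2.22 to 2.30), and Rps15a 277 CPM with IL-15 and 109 CPM with IL-2; Rps27 was higher as well. Ribosomal protein genes have many near-identical processed copies in the genome, so these counts are uncertain, and Rps24 was the only member called among 30 listed ribosomal protein genes. Ogt, the enzyme that attaches O-linked N-acetylglucosamine to proteins, measured 61.1 CPM with IL-15 and 26.3 CPM with IL-2. Sirt3, a mitochondrial deacetylase, measured 24.5 CPM with IL-15 and 9.87 CPM with IL-2, and Gdf15, a stress-induced cytokine, 64.4 CPM with IL-15 and 29.7 CPM with IL-2. The largest of the 18 ratios was 2.68-fold (Rps27).

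Genes with fewer reads gave larger ratios. Ranked by the bound of their interval nearest to 1 among genes with at least 100 scaled counts, the 20 lowest included Gata1, Freq, Xkr5, Stc2 and Iqgap3, each with 0 reads with IL-15. Gata1, the erythroid and megakaryocyte transcription factor, had 230 reads with IL-2. Taking 3 counts for the 0, it was 60.4-fold lower with IL-15, with a counting interval that begins at 48.7-fold. Mycn, a relative of Myc, had 4 reads with IL-15 and 361 with IL-2, 71.1-fold lower with an interval of 27.5 to 262, and 0.0322 CPM in untreated cells. Rad54b, a DNA repair translocase, had 1 read with IL-15 and 159 with IL-2. Among the 20 highest, Serpine2, Fam71f2 and Pigz had 0 reads with IL-2. Serpine2, a protease inhibitor, had 96 reads with IL-15 and was 40.6-fold higher by the same rule, with a counting interval that begins at 32.4-fold. Abca1, the cholesterol exporter, was better counted with 406 reads with IL-15 and 71 with IL-2, 7.26-fold higher (interval 5.63 to 9.48). In all, 5 tested genes had 0 reads with IL-15 and at least 100 scaled counts with IL-2, and 3 had the reverse. Given the share of low-count genes called in both directions, these ratios are descriptions of this pair of libraries.

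The other doses and times are set beside the pair at 1 nM and 24 h. Over all genes with at least 20 scaled counts, 6.26% were higher and 7.73% lower with IL-15 in the low-dose 4 h pair (14.0% in all), 7.38% and 5.96% in the high-dose 4 h pair (13.3% in all), and 4.0% and 3.56% in the high-dose 24 h pair (7.56% in all). With at least 1000 scaled counts, 33 of 5108 genes were higher and 37 lower in the low-dose 4 h pair. In the high-dose 4 h pair 83 of 5252 were higher and 14 lower, so that pair was uneven in the opposite direction. In the high-dose 24 h pair 8 of 5315 were higher and 4 lower. Of the 118 well-counted lower genes, 5 were also at least 2-fold lower in the low-dose 4 h pair, with 7 higher and 106 within 2-fold. In the high-dose 4 h pair 0 of them were lower, 7 higher and 111 within 2-fold, and in the high-dose 24 h pair 1 was lower, 0 higher and 117 within 2-fold. Where both pairs had at least 1000 scaled counts, 1 of 54 was also lower in the low-dose 4 h pair, where 30 of all 5018 genes were lower. In the high-dose 4 h pair it was 0 of 77, where 14 of all 5017 genes were lower. In the high-dose 24 h pair it was 0 of 111, where 1 of all 4964 genes was lower. With so few genes lower in these pairs, little overlap could be found, and its small size says little. None of the 18 higher genes was higher in either 4 h pair, and 2 were in the high-dose 24 h pair. At the limit of 20 scaled counts, 145 of 764 lower genes (19.0%, and 19.4% of the 746 called lower there) were also lower in the low-dose 4 h pair and 129 were higher in it. The high-dose 4 h pair had 102 of 783 lower (13.0%, and 18.0% of its own 567) and 140 higher, and the high-dose 24 h pair 64 of 768 lower (8.33%, and 19.3% of its own 332) and 66 higher, so shared and opposite calls came in like numbers. The differences between pairs have no test, since each pair is 1 library against 1.

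In Gzmb, Cish, Il2ra, Igtp and Cdc2a the gap of the 1 nM pair at 24 h was wider than in the other pairs. Gzmb measured 18.3 CPM with IL-15 and 13.3 CPM with IL-2 in the low-dose 4 h pair, 1408 CPM with IL-15 and 934 CPM with IL-2 in the high-dose 4 h pair, and 3487 CPM with IL-15 and 3680.2 CPM with IL-2 in the high-dose 24 h pair. All 3 of these pairs were within 2-fold. Cish measured 268 CPM with IL-15 and 152 CPM with IL-2 in the low-dose 4 h pair, 1192 CPM with IL-15 and 1627 CPM with IL-2 in the high-dose 4 h pair, and 1012 CPM with IL-15 and 1114 CPM with IL-2 in the high-dose 24 h pair. With IL-15 at the low dose it was thus above the untreated level at 4 h and near it at 24 h, while with IL-2 at the low dose the levels at 4 h and 24 h were close. Il2ra measured 14.7 CPM with IL-15 and 12.7 CPM with IL-2 in the low-dose 4 h pair, and 61.5 CPM with IL-15 and 88.8 CPM with IL-2 in the high-dose 24 h pair. Igtp measured 861 CPM with IL-15 and 786 CPM with IL-2 in the low-dose 4 h pair, and 2735 CPM with IL-15 and 2582 CPM with IL-2 in the high-dose 24 h pair. Both genes were within 2-fold in these pairs. Cdc2a was at most 10.5 CPM in the 4 h libraries and measured 154 CPM with IL-15 and 158 CPM with IL-2 in the high-dose 24 h pair.

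**Figure D4:**
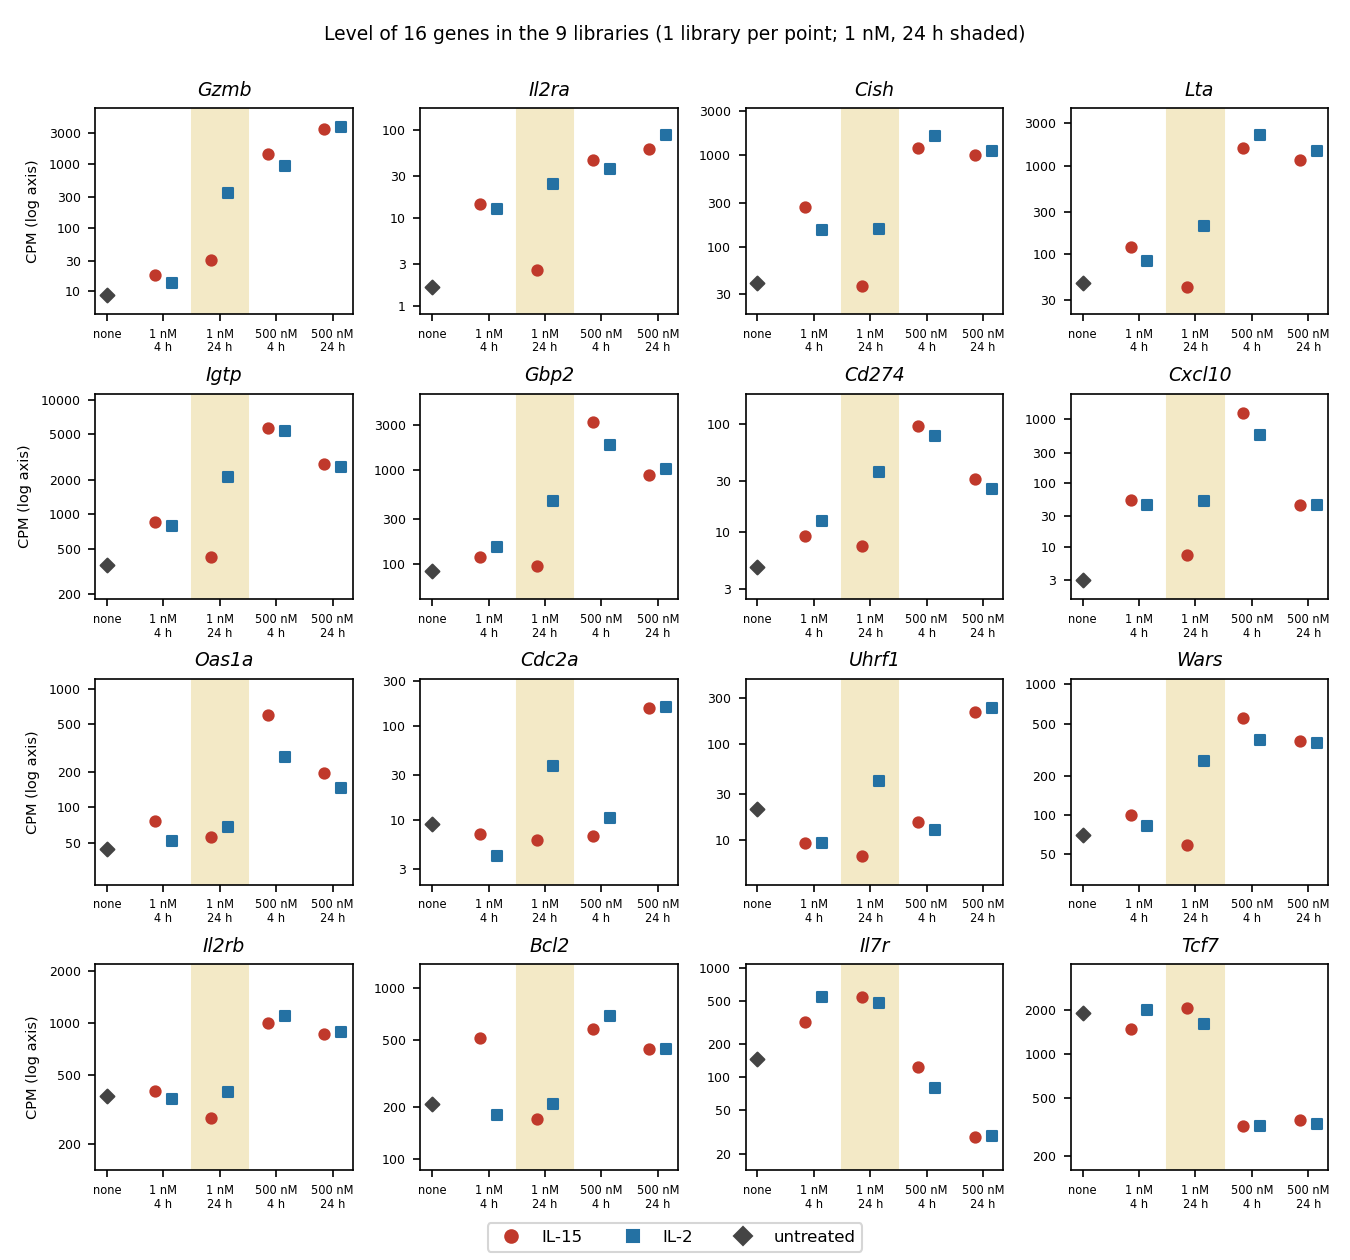
Level in CPM (log axis) of 16 genes in each of the 9 libraries, 1 point per library, with untreated at the left and the pair at 1 nM and 24 h shaded. Gzmb, Il2ra, Cish, Lta, Igtp, Gbp2, Cd274, Cxcl10, Cdc2a, Uhrf1 and Wars show a gap between IL-15 and IL-2 in the shaded pair that is smaller in the other pairs; Oas1a, Il2rb, Bcl2, Il7r and Tcf7 are within 2-fold in the shaded pair.

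Gene lists in the other pairs varied. The 16 GTPase genes had 0 lower members and a median of -0.06 in the low-dose 4 h pair, 0.58 in the high-dose 4 h pair and 0.12 in the high-dose 24 h pair. The Oas, Ifit and Mx genes had medians of 0.39, 1.13 and 0.43 in the same order of pairs, with 10 of 16 called higher with IL-15 in the high-dose 4 h pair. The STAT5 target list had medians of 0.18, -0.09 and -0.13 in that order. Mitosis had medians of -0.49, 0.10 and 0.10 in that order. In the low-dose 4 h pair 6 of 26 tested were called lower and 3 higher, beside 7.73% and 6.26% of all genes. In the high-dose 4 h pair 2 of 29 were lower and 3 higher, beside 5.96% and 7.38% of all genes. In the high-dose 24 h pair 0 of 29 were lower and 0 higher.

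Set beside untreated cells, the IL-15 library had a median nearer to 0 than the IL-2 library on the mitosis, interferon and STAT5 target lists, but not on every list: the AP-1, EGR and NR4A genes had medians of -0.87 with IL-15 and -0.62 with IL-2, the nuclear respiratory chain genes -0.34 with IL-15 and 0.20 with IL-2, and the FOXO and PI3K brake genes 0.31 with IL-15 and 0.03 with IL-2. Both comparisons use the same untreated library and the libraries of the pair itself, so they are values side by side and not separate evidence. Over all genes, 1314 of 11925 (11.0%) were higher and 1213 (10.2%) lower than untreated with IL-15, and 1608 of 12053 (13.3%) higher and 1248 (10.4%) lower with IL-2. The 118 well-counted lower genes had a median log2 ratio to untreated of -0.39 with IL-15 (8 at least 2-fold higher, 18 lower) and 1.16 with IL-2 (68 higher, 1 lower). The mitosis list had medians of -0.09 with IL-15 and 1.33 with IL-2, and 2 and 21 of its members were called higher than untreated. The interferon list had medians of 0.23 with IL-15 and 0.76 with IL-2, with 3 and 15 members higher, and the STAT5 target list -0.16 with IL-15 and 0.61 with IL-2, with 4 and 9 members higher. No untreated library is labelled with a time, so cytokine and time in culture cannot be told apart in these values.

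Markers of CD8+ T cells were high in both libraries, and markers of other spleen cells were present in both. Cd8a measured 644 CPM with IL-15 and 662 CPM with IL-2, and none of 16 T cell identity genes was called (median 0.04). B cell markers summed to 962 CPM with IL-15 and 984 CPM with IL-2, with 2 of 15 tested higher (Ebf1 and Cr2), 0 lower and Pax5 at 0 reads in both. Macrophage and monocyte markers summed to 1726 CPM with IL-15 and 1385 CPM with IL-2, with 2 of 19 higher (Spic and Hmox1) and 1 lower (Fcgr1). Class II presentation genes summed to 1749 CPM with IL-15 and 2149.7 CPM with IL-2 with none of 10 called. NK cell markers summed to 215 CPM with IL-15 and 211 CPM with IL-2, with 1 of 7 tested lower (Ncr1) and 1 higher (Klrb1c). CD4+ and regulatory T cell markers had 3 of 9 lower, namely Il2ra, Cd40lg and Ctla4 (sum 51.2 CPM with IL-15 and 90.2 CPM with IL-2). Cd4 itself measured 2.62 CPM with IL-15 and 2.85 CPM with IL-2, and Foxp3 15.3 CPM with IL-15 and 22.2 CPM with IL-2. Dendritic cell markers summed to 94.2 CPM with IL-15 and 126 CPM with IL-2, plasma cell markers to 228 CPM with IL-15 and 272 CPM with IL-2, and erythroid markers to 84.1 CPM with IL-15 and 90.5 CPM with IL-2. The shares of all genes beside these marker counts are 6.77% higher and 8.73% lower. What part cells other than CD8+ T cells had in the results above was not tested.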

How the data were processed

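Total RNA of splenic CD8+ T cells was sequenced in 9 libraries of 1 condition each, all from pooled RNA, so that no condition had a replicate; per the labels' protocols, little RNA entered and the cDNA was amplified by PCR before and after fragmentation. The deposited tables hold, per transcript, read counts and RPKM values that the authors computed, per the file headers; the submitters' processing notes name CASAVA 1.8, Bowtie 0.12.4 and the mm8 build. How strand and reads with several matches were handled is not stated in the tables or labels used here. No result rests on the deposited RPKM values.

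For each gene symbol the transcript with the highest mean count over the 9 tables was kept. Libraries were scaled with TMM in edgeR 4.0.16 (R 4.3.3), and the ratio of scaled counts was given an exact conditional (Clopper-Pearson) 95% interval with scipy 1.17.1 in Python 3.11.15. A count of 0 was set to 3 counts, which keeps the ratio finite but is not a bound of the counting interval. Genes with at least 20 scaled counts in either library were tested, and called at 2-fold. The procedure was tested on simulated data that held counting error only, with changes planted away from the lowest counts. That simulation does not cover the scatter seen at low counts in the real pair. Named genes were, among called genes with a standard symbol and at least 100 scaled counts, the 20 highest and 20 lowest by the interval bound nearest to 1, up to 6 members of each list with the largest ratios, and 22 genes fixed by symbol. Ccnb2, Ccnd2, Cd4, Cdt1, Ciita, Gbp5, Ifit1, Ifnar1, Ifngr1, Irf1, Jak3, Ltb, Mcm2, Mcm5, Mx1, Ncl, Oas1a, Oas2, Oasl2, Stat5a, Tgtp2, Tnf and the genes with at least 1000 scaled counts named outside the lists were chosen after their values were seen. Some single genes are not reported here. The members and lists were chosen with earlier results of these data known. Alternatives changed the scaling (DESeq2 1.42.0 size factors among them), the count minimum, the fold, the transcript choice and the offset.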

Additional observations from a re-analysis of the deposited data

Results flagged for a closer look

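Among named genes that were called with at least 1000 scaled counts at 1 nM and 24 h, 6 had a ratio of IL-15 over IL-2 at least 2-fold on the opposite side in another pair with at least 100 scaled counts there; genes with fewer reads did so too and are counted above. Each value is 1 library against 1, and the difference between pairs was not tested. In the low-dose 4 h pair the log2 ratio was 1.17 for Osm (-1.32 at 24 h), 1.36 for Il15ra (-1.46 at 24 h) and 1.24 for Rrp1b (-1.45 at 24 h). In the high-dose 4 h pair it was 1.16 for Cxcl10 (-2.81 in the 1 nM pair at 24 h), 1.38 for Irg1 (-2.22), an immune-induced gene of macrophages and other cells, and -1.12 for Gdf15 (1.11). The levels behind them were 31.4 CPM with IL-15 and 14.0 CPM with IL-2 for Osm, 11.6 CPM with IL-15 and 4.50 CPM with IL-2 for Il15ra, and 1261 CPM with IL-15 and 563 CPM with IL-2 for Cxcl10.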

How the results depend on the processing

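The counts of 817 higher and 1054 lower genes depended on the fold and the count minimum. They were 1600 and 1917 at 1.5-fold, 488 and 605 at 3-fold, 1192 and 1606 with a minimum of 1 scaled count, 513 and 733 with a minimum of 50, 324 and 535 with a minimum of 100, and 18 and 118 with a minimum of 1000, the last chosen after seeing the data. Where the whole counting interval had to lie beyond 2-fold they were 514 and 652. Other scalings gave 817 to 854 higher and 1012 to 1054 lower genes, other choices of transcript 818 to 847 and 1038 to 1084, and offsets of 1 and 5 counts 807 and 1040, and 763 and 987. All 172 called genes among those named kept their direction under 8 settings, and 166 to 172 of them stayed past 2-fold. These genes were picked at 2-fold or more and the settings reuse the same libraries, so kept directions were likely from the start. Of 426 recomputed list medians 406 moved little, 19 moved further, and 1 changed sign: platelet markers, -1.59 over 2 genes, came to 0.24 with a minimum of 50 scaled counts, where 1 gene was left. No paired analysis was possible because no condition has a second library. Counting intervals are widest for genes with few reads; 56.6% of genes under 100 scaled counts were called, and the cause was not tested.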

Other observations

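Milk protein genes, a group chosen after seeing the data, were read at low levels. The caseins and Wap, known STAT5 targets of the mammary gland, summed at 1 nM and 24 h to 2.01 CPM with IL-15 and 22.9 CPM with IL-2, beside 12.7 CPM in untreated cells. Of 6 measured, 5 were tested and all 5 were lower with IL-15, with a median log2 ratio of -3.66, beside 8.73% of all genes lower. In the low-dose 4 h, high-dose 4 h and high-dose 24 h pairs 2 of 2, 3 of 3 and 2 of 2 tested were lower. The shares of all genes lower there were 7.73%, 5.96% and 3.56%. Testing required at least 20 scaled counts in either library. For every member tested in those pairs the higher library was IL-2, so these counts are no separate support. Csn3 had too few reads to be tested in the low-dose 4 h pair and went the other way. It measured 0.377 CPM with IL-15 and 0.0269 CPM with IL-2 in that pair. The sums in all of the other pairs were below the untreated one. They were 0.905, 0.321 and 0.0296 CPM with IL-15 and 3.56, 8.61 and 2.49 CPM with IL-2, in that order. What set these levels was not tested. Csn1s2a had 9 reads with IL-15 and 182 reads with IL-2.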
